A study of Sus scrofa with 8 samples.

Results

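The genes of fatty acid transport, binding and activation were followed in the backfat of 2 pig breeds. They comprise the scavenger receptor CD36, the fatty acid binding proteins FABP3, FABP4 and FABP5, the fatty acid transport proteins SLC27A1 and SLC27A6, the long-chain acyl-CoA synthetases ACSL1, ACSL3 and ACSL4, and the acyl-CoA binding protein DBI. A probe set was taken where its platform annotation held exactly 1 gene symbol and that symbol was among these 10. This gave 12 probe sets for 9 genes, out of 10069 probe sets with a single symbol, which name 6765 genes. No probe set in the annotation used carried CD36 as its single symbol, so CD36 was not analysed here. The Entrez gene identifiers of the 9 genes are 399532 for FABP3, 399533 for FABP4, 574074 for FABP5, 100037269 for SLC27A1, 100517271 for SLC27A6, 448982 for ACSL1, 100233169 for ACSL3, 448980 for ACSL4 and 397212 for DBI; no genome coordinates are given here. The leading probe set of a gene is the one with the highest mean over all arrays.

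Backfat, the subcutaneous fat along the back, was sampled from the middle of the pig. There were 4 KNP samples at 7 months of age and 4 YS samples at 6 months, raised under the same conditions. The labels spell YS out once as Yorkshire and leave KNP as an abbreviation; they give no sex and do not state whether the 4 samples of a breed are 4 animals, so p-values measure only the spread between samples. Breed and age cannot be told apart. Each sample was hybridised to 1 single-colour Affymetrix GeneChip Porcine Genome Array, and the number of arrays limits the precision of every value.

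Long-chain fatty acids reach the fat cell from lipoproteins and albumin in the capillary. Membrane proteins such as CD36 and the fatty acid transport proteins help them in, the small cytosolic fatty acid binding proteins carry them through the water phase, and acyl-CoA synthetases join them to coenzyme A. This activation traps the fatty acid in the cell and is needed before it can be stored as triacylglycerol or oxidised, and DBI binds the acyl-CoA that results. FABP4 is the binding protein known as the adipocyte form, FABP3 the heart and muscle form and FABP5 the epidermal form, while ACSL1 is known as a main synthetase of mature fat cells.

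Trimmed mean signals were equal on all arrays, and median signals ranged from 158.2 to 263. Background was judged by 23 control probe sets that match no pig transcript; the 95th percentile of their signals, here called the no-target level, lay between 40.6 and 161 in signal. Of 12 adipocyte markers 9 had a probe set, among them ADIPOQ and LEP, and all 9 were above the no-target level on all 8 arrays. Of 24 skeletal muscle markers 18 had a probe set, of which CASQ2 was above the no-target level on no array; their summed signal was 84283 on KNP replicate 2, with 713 to 1882 on the remaining KNP arrays against 957 to 1875 in YS. The 3' to 5' signal difference of the housekeeping controls, a sign of RNA or labelling quality, was 8.54 log2 units on KNP replicate 1 and 5.88 on KNP replicate 2, against 2.20 and 2.12 on KNP replicates 3 and 4 and 2.58 to 4.40 in YS. For the genes of the set, where leaving these arrays out moved a difference by over 1.5 times, the value without them is given. No such values are given for genes of the other lists, so their stability is not shown.

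No gene of the set was separated between the breeds by the test. Of the 12 probe sets 11 passed the filter on low signal; 7 had a higher mean in KNP and 4 a higher mean in YS, against 49.9% with a higher mean in KNP over all 17999 probe sets tested. At an adjusted p of 0.05 in limma 0 of the 11 passed, as did 0% of all probe sets, and the adjusted p of all 11 was 0.9998. Unadjusted, 0 of the 11 had a p under 0.05, against 2.84% of all probe sets. Their median log2 difference was 0.14, beside -0.0010 over all probe sets tested. With quantile normalization 5 of the 11 had a higher mean in KNP and 6 a lower one, with a median of -0.014. All log2 values are of signal + 16, which shrinks the differences of dim probe sets. Signals of different probe sets depend on how well each probe binds, so the signals below do not rank the genes, and which family member is most abundant cannot be read from them.

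**Figure D1:**
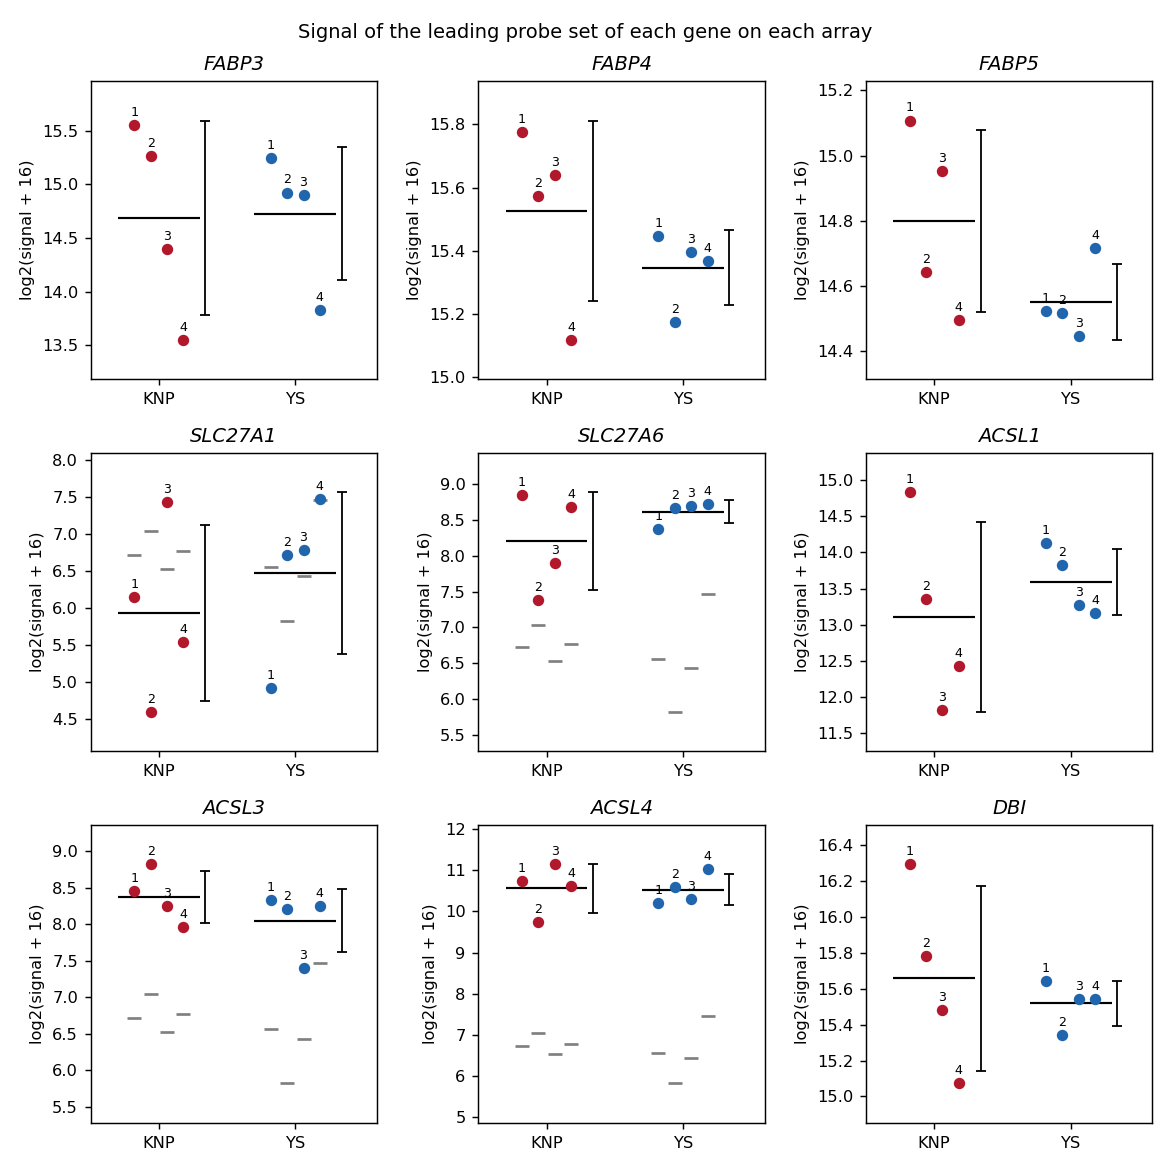
The 9 leading probe sets, 1 panel per gene, with log2(signal + 16) on the vertical axis and breed on the horizontal axis. Each point is 1 array with its replicate number, horizontal lines are means, bars are the SD over 4 arrays, and grey dashes (drawn for genes with any value under 10) are the no-target level of each array. The breeds overlap in every panel, and SLC27A1 lies near the grey dashes.

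FABP4, the binding protein of fat cells, varied little in YS and more in KNP. Its signal was 56120, 48724, 51028 and 35557 on KNP replicates 1 to 4 and 44676, 36984, 43092 and 42297 on YS replicates 1 to 4. Of the KNP arrays, 3 lay above every YS array and 1, replicate 4, lay below every YS array. In log2 terms the FABP4 mean was 15.53 ± 0.29 over the KNP arrays and 15.35 ± 0.12 over the YS arrays (SD, n = 4). The difference of 0.18 ± 0.24 (SE) is a fold of 1.13, with a 95% interval from 0.779 to 1.65 (adjusted p = 0.9998 in limma), so a change of 2-fold lay outside the interval in either direction. Without the 3 arrays of largest 3' to 5' difference (KNP replicates 1 and 2 and YS replicate 4) the log2 difference was 0.039, without KNP replicate 1 it was 0.097 and without KNP replicate 4 it was 0.32.

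FABP5, which binds fatty acids in skin, macrophages and endothelium as well as in fat, had 2 probe sets. The leading one read 35282, 25586, 31690 and 23106 on the KNP arrays and 23532, 23455, 22299 and 26924 on the YS arrays, at 14.80 ± 0.28 and 14.55 ± 0.12 in log2 (SD, n = 4). KNP replicates 1 and 3 lay above every YS array, and the other 2 KNP arrays lay within the YS range. The fold was 1.19 with a 95% interval from 0.819 to 1.72. The log2 difference was 0.25, and 0.15 without KNP replicate 1.

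The other FABP5 probe set was the only one of the 11 in which the breeds did not overlap. It read 5428, 4629, 4867 and 4204 in KNP and 3121, 3656, 4076 and 4166 in YS, so that the lowest KNP array stood just above the highest YS array. Non-overlap in either direction was seen for 1.96% of all probe sets tested, and 1 of 11 here is 1 probe set. The log2 difference was 0.35 ± 0.23 (SE), a fold of 1.28 with a 95% interval from 0.894 to 1.82, and an adjusted p of 0.9998 in limma. With quantile normalization the breeds overlapped in this probe set too. The FABP5 probe sets had the same direction and a Pearson correlation of 0.78 over the 8 arrays, given as a description.

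Epidermal markers, which bear on FABP5, were dim: of 12, 4 had a probe set and 1 of these was above the no-target level on all arrays. Their summed signal was 441 to 1331 in KNP and 447 to 927 in YS. Macrophage markers, of which 9 of 14 had a probe set, summed to 3766 to 6891 in KNP and 4911 to 12682 in YS. Of these 9, 5 were above the no-target level on all arrays. A lower mean in KNP was seen for 6 of 9, where 49.9% of all probe sets tested had a higher mean in KNP. With quantile normalization it was 5 of 9. Endothelial markers, of which 11 of 13 had a probe set, summed to 12559 to 22957 in KNP and 16410 to 17694 in YS. Of the 10 tested, 6 had a lower mean in KNP. KDR, which was not tested, was above the no-target level on no array. The part of these marked cell types in the FABP5 and FABP4 values was not tested. In whole tissue, fewer cells of a type and less RNA per cell cannot be told apart.

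FABP3 varied more within each breed than between them. Its probe set read 48087, 39241, 21585 and 11974 in KNP and 38952, 31070, 30594 and 14555 in YS. The highest KNP array was 4.01-fold above the lowest, and the highest YS array 2.67-fold above the lowest, while the breed means of 14.69 ± 0.91 and 14.73 ± 0.62 (SD, n = 4) differed by -0.036 ± 0.49 (SE) with a fold interval from 0.454 to 2.09. KNP replicate 2, the array with high muscle markers, held the second highest FABP3 signal of the 8. KNP replicate 1 and YS replicate 1 were about as high or higher, with muscle marker sums of 1882 and 1379. The part of muscle content in the FABP3 signal was not tested. Without KNP replicate 1 the difference was -0.32, without KNP replicate 2 it was -0.23 and without YS replicate 4 it was -0.33. Without the 3 arrays of largest 3' to 5' difference it was -1.05 (unadjusted p = 0.0207, adjusted p = 0.526 in limma). In that setting 1492 of all 17999 probe sets tested had an unadjusted p under 0.05. The sign turned when other single arrays were left out, to 0.34 without KNP replicate 4 and 0.14 without YS replicate 1, and in all without 5 of the 8 arrays, so these data give FABP3 no direction.

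The transport protein SLC27A1 was read near background. SLC27A1, also called FATP1, which takes up fatty acids in fat and muscle in response to insulin, ranged from 8.19 to 157.4 in KNP and from 14.1 to 161.8 in YS. It was above the no-target level on 1 of 4 KNP arrays and 3 of 4 YS arrays. The log2 means were 5.93 ± 1.19 and 6.47 ± 1.10 (SD, n = 4), and the difference of -0.54 ± 0.69 (SE) was smaller than the spread of either breed and turned to 0.35 without the 3 arrays of largest 3' to 5' difference. With single arrays left out it ran from -1.06 without YS replicate 1 to -0.093 without KNP replicate 2, with -0.21 without YS replicate 4. It fell below the filter, and was not tested, when KNP replicate 3 was left out and when YS replicate 2 or 3 was. No fold is given at this signal.

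SLC27A6, a transport protein known from heart, was represented by 3 probe sets that did not follow one another. The leading one was above the no-target level on all arrays, with 443.7, 151.3, 221.7 and 395.6 in KNP and 316.1, 391.8, 398.3 and 405.1 in YS. YS arrays lay close together, whereas KNP replicates 2 and 3 lay below all of them and KNP replicate 1 above. Its log2 means were 8.20 ± 0.69 and 8.61 ± 0.16 (SD, n = 4), a difference of -0.41 ± 0.35 (SE; adjusted p = 0.9998 in limma). With single arrays left out the difference ran from -0.63 without KNP replicate 1 to -0.14 without KNP replicate 2.

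A further SLC27A6 probe set had a mean difference of opposite sign, with 28.5 to 170.1 in KNP and 25.3 to 172.9 in YS and a difference of 0.40 ± 0.58 (SE). With single arrays left out this value ran from 0.0065 without YS replicate 2 to 0.88 without KNP replicate 1, with 0.20 without KNP replicate 2 or KNP replicate 4 and 0.74 without YS replicate 1. It was 0.77 without the 3 arrays of largest 3' to 5' difference. The probe set was above the no-target level on 3 KNP and 2 YS arrays, and its Pearson correlation with the leading probe set over the 8 arrays was -0.56. The remaining SLC27A6 probe set did not pass the filter. It ranged from 4.95 to 56.3 over all arrays and was above the no-target level on 1 of 8. The mean over the tested SLC27A6 probe sets differed by -0.0080 between the breeds, so these data give SLC27A6 no direction.

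Among the synthetases, ACSL1 spread most. Its signal was 29085, 10482, 3611 and 5480 in KNP and 17839, 14463, 9907 and 9130 in YS. KNP held both the highest and the lowest array, with a ratio of 8.02 between its extremes against 1.95 in YS, and KNP replicates 3 and 4 lay below every YS array. The log2 means of 13.11 ± 1.31 and 13.60 ± 0.46 (SD, n = 4) differed by -0.49 ± 0.60 (SE), a fold of 0.714 with a 95% interval from 0.281 to 1.82 (adjusted p = 0.9998 in limma).

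The size of the ACSL1 difference depended on single arrays. Without KNP replicate 3, its lowest array, the log2 difference was -0.058, and without KNP replicate 4 it was -0.26 (adjusted p = 0.9999 and 0.9997 in limma). Without YS replicate 1 it was -0.31. Without KNP replicate 1, its highest array, the difference was -1.06 (unadjusted p = 0.0361, adjusted p = 0.999 in limma), and without the 3 arrays of largest 3' to 5' difference it was -1.62 (unadjusted p = 0.00424, adjusted p = 0.483). Without KNP replicate 1, 777 of all 17999 probe sets tested had an unadjusted p under 0.05, and without those 3 arrays 1492 did. With all arrays 511 did. With the 3' to 5' difference as a covariate the ACSL1 difference was -0.98 (adjusted p = 0.999). Within KNP the ACSL1 signal was highest on the 2 arrays with the largest 3' to 5' difference, and within YS it was lowest on the array with the largest. The part of RNA quality in these values was not tested.

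ACSL3, a synthetase of the endoplasmic reticulum and of forming lipid droplets, read 334.2, 435.9, 288.6 and 232.9 in KNP and 304.2, 278.1, 153.4 and 288.7 in YS. KNP replicates 1 and 2 stood above every YS array, and the low YS mean came mainly from YS replicate 3. The difference of 0.33 ± 0.31 (SE) is a fold of 1.25 with a 95% interval from 0.777 to 2.02, and in log2 it was 0.11 without YS replicate 3, 0.18 without KNP replicate 2 and 0.13 without the 3 arrays of largest 3' to 5' difference.

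ACSL4, which prefers arachidonic acid and other highly unsaturated fatty acids, read 1680, 839.4, 2241 and 1558 in KNP and 1161, 1520, 1247 and 2065 in YS. The breeds overlapped over most of their range, and the means of 10.56 ± 0.59 and 10.53 ± 0.37 (SD, n = 4) differed by 0.029 ± 0.35 (SE), with a fold interval from 0.593 to 1.76. Its lowest array was KNP replicate 2. The log2 difference was 0.30 without KNP replicate 2 and 0.52 without the 3 arrays of largest 3' to 5' difference, but -0.17 without KNP replicate 3. It was -0.028 without KNP replicate 1, -0.080 without YS replicate 1 and -0.046 without YS replicate 3. The value was 0.0081 without KNP replicate 4, 0.048 without YS replicate 2 and 0.19 without YS replicate 4, so these data give ACSL4 no direction.

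DBI, the small acyl-CoA binding protein that hands acyl-CoA to the enzymes using it, was uneven in KNP and even in YS. Its probe set read 80402, 56311, 45765 and 34437 in KNP and 51185, 41534, 47806 and 47688 in YS. Of the KNP arrays, 2 lay above and 1 below every YS array. The log2 means were 15.66 ± 0.51 and 15.52 ± 0.13 (SD, n = 4), a difference of 0.14 ± 0.30 (SE) and a fold of 1.10 with a 95% interval from 0.693 to 1.75. Without KNP replicate 4 the difference was 0.33, without YS replicate 2 it was 0.081, without KNP replicate 1 it was -0.073, without the 3 arrays of largest 3' to 5' difference it was -0.23, and with quantile normalization -0.035, so its direction changed with the setting.

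**Figure D2:**
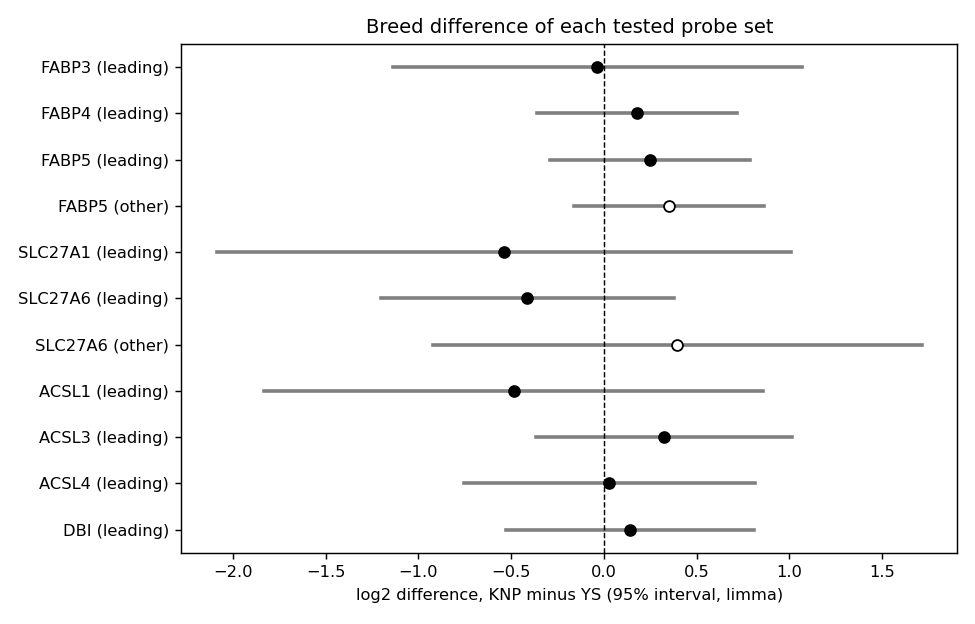
The log2 difference KNP minus YS (horizontal axis) of each of the 11 tested probe sets (vertical axis), with the 95% interval from limma. Filled points are leading probe sets and open points the other probe set of FABP5 and of SLC27A6. Every interval includes 0, the narrowest being those of FABP4 and FABP5, and the SLC27A6 probe sets lie on opposite sides of 0.

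The balance between family members on the same array was compared between the breeds as a description, since the size of such a log2 difference depends on the probes and carries meaning only between arrays. FABP4 minus FABP5 varied little, at 0.73 ± 0.14 over the KNP arrays and 0.80 ± 0.16 over the YS arrays (SD, n = 4), with a range of 0.62 to 0.95 over all 8 arrays. In KNP its SD was below those of FABP4 (0.29) and FABP5 (0.28) alone. In YS it was above theirs (0.12 each), so the YS arrays do not show these genes following each other. FABP4 and FABP5 lie in the same cluster of binding protein genes, with 2 annotated genes starting between them in the RefSeq annotation of Sscrofa11.1. The part of this location in the balance was not tested. FABP4 minus FABP3 ranged from 0.22 to 1.57 in KNP and from 0.20 to 1.54 in YS, with KNP replicates 3 and 4 and YS replicate 4 high and the others under 0.50. The breed means of this balance, 0.84 and 0.62, differed by less than the SD within either breed.

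ACSL1 minus ACSL3 averaged 4.74 ± 1.18 for KNP against 5.55 ± 0.44 for YS (SD, n = 4); 3 of the 4 KNP arrays were below every YS array, while KNP replicate 1 was above every YS array. ACSL1 minus ACSL4 was at 2.55 ± 1.59 against 3.07 ± 0.74. It was 4.10 and 3.62 on KNP replicates 1 and 2 and 0.68 and 1.80 on KNP replicates 3 and 4, so the KNP arrays fell on both sides of most of the YS range of 2.14 to 3.92. These 4 balances overlapped between the breeds. For SLC27A1 minus SLC27A6 no balance is given, since SLC27A1 was above the no-target level on 4 of 8 arrays.

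**Figure D3:**
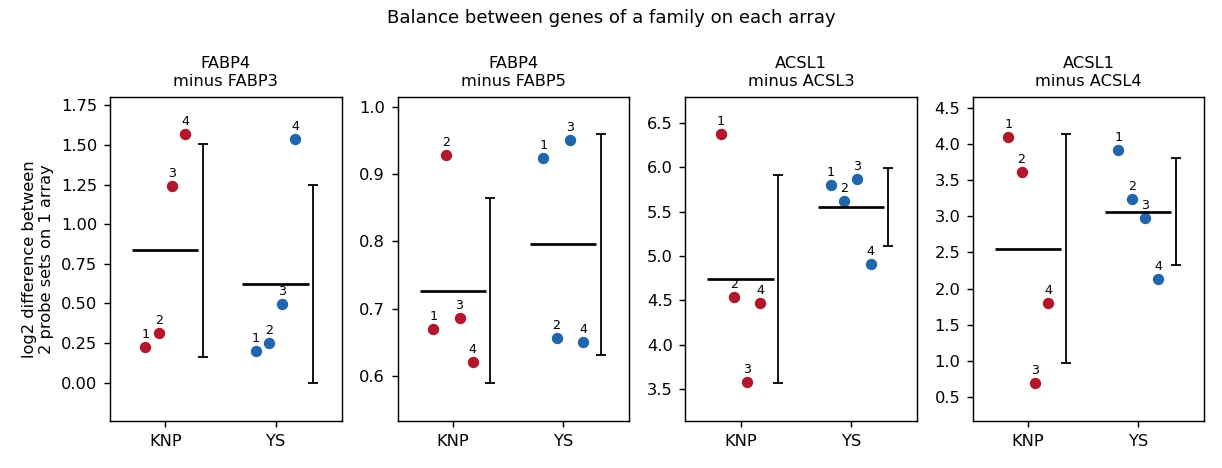
Log2 difference between the leading probe sets of 2 genes on the same array (vertical axis), by breed (horizontal axis), 1 panel per pair. Points are arrays with their replicate number, lines are means and bars are the SD over 4 arrays. All panels overlap between breeds, and FABP4 minus FABP5 spans only 0.62 to 0.95.

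Spread was wider in KNP than in YS for most of the set. The SD over 4 arrays was higher in KNP for 9 of the 11 tested probe sets and 8 of the 9 leading ones, against 55.8% of all probe sets tested; the difference in spread was not tested. In the leading probe sets the ratio of the KNP to the YS SD was 4.26 for SLC27A6, 4.07 for DBI and 2.87 for ACSL1. It was 2.40 for FABP4 and 2.40 for FABP5. For ACSL3 it was 0.841, the lowest among the leading probe sets. The other FABP5 probe set had a ratio of 0.807, with the wider spread in YS. The other SLC27A6 probe sets had ratios of 1.06 and 1.18, so the wide KNP spread of FABP5 and SLC27A6 was seen in their leading probe sets only. Single arrays set part of this. The KNP SD of ACSL1 was 1.31 and fell to 0.77 without KNP replicate 1; that of DBI was 0.51 and fell to 0.36 without the same array; that of FABP4 was 0.29 and fell to 0.10 without KNP replicate 4.

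Of the 9 leading probe sets, 6 were highest of all 8 arrays on KNP replicate 1: FABP3, FABP4, FABP5, SLC27A6, ACSL1 and DBI. The deviations there from the 8-array mean ran from 0.34 for FABP4 to 1.48 for ACSL1. This is the array with the largest 3' to 5' difference, and the median of the adipocyte markers on it was -0.72 around their own means, the lowest of the 8 arrays. KNP replicate 4 was the lowest array for FABP3, FABP4 and DBI, where the adipocyte median was 0.09, and KNP replicate 2 was the lowest for SLC27A1, SLC27A6 and ACSL4. How many of all probe sets were highest or lowest on these arrays was not computed. The counts above are therefore not read as a trait of this set. The part of RNA quality and of cell content in these deviations was not tested.

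**Figure D4:**
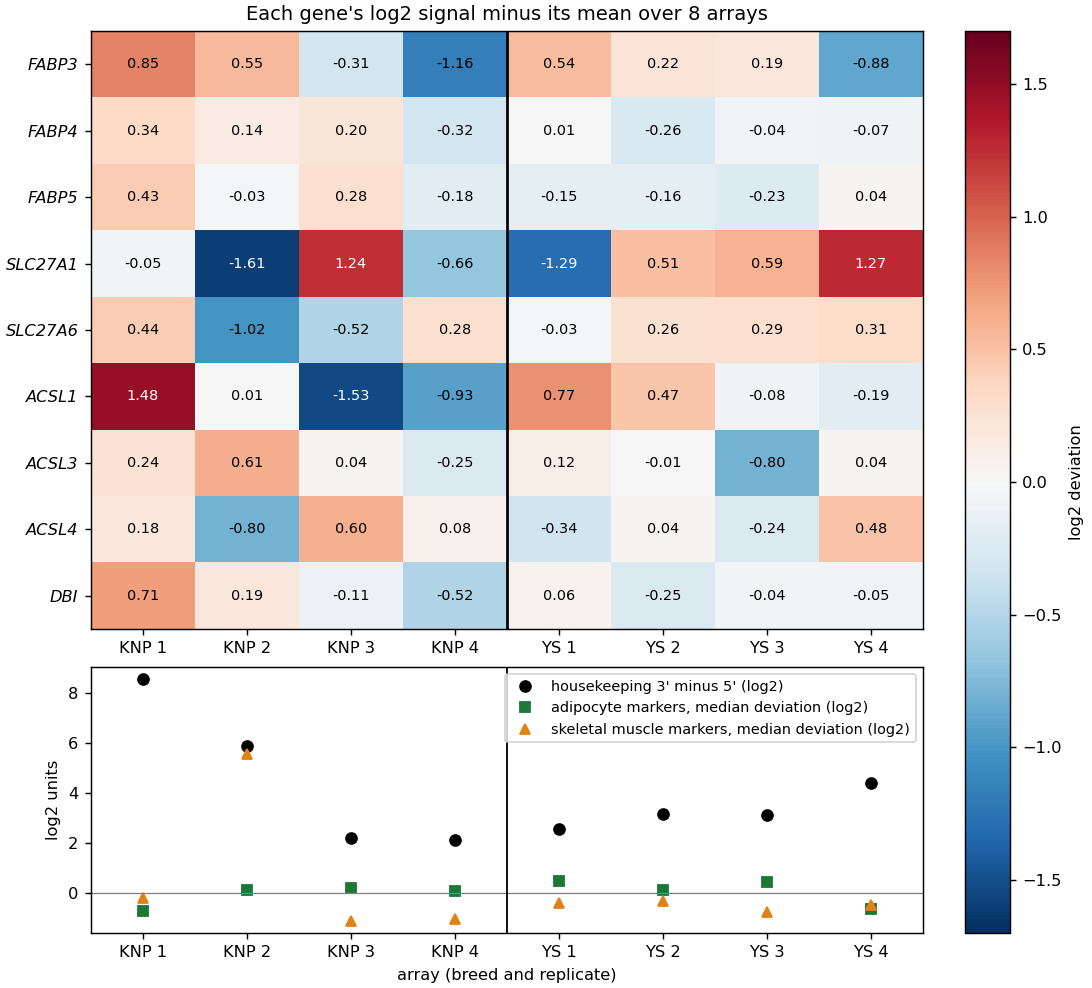
Upper panel, log2(signal + 16) of each leading probe set minus its mean over the 8 arrays, with genes as rows, arrays as columns and the deviation as colour and number. Lower panel, on the same arrays, the 3' to 5' difference of the housekeeping controls and the median deviation of adipocyte and skeletal muscle markers, all in log2 units. KNP replicate 1 holds the highest value of 6 genes and the largest 3' to 5' difference (8.54), and KNP replicate 2 the high muscle markers (5.53).

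For each member, the named genes with the most similar profile over the 8 arrays were found among 6005 others by Pearson correlation of log2 signal. These are the extremes of many correlations over few arrays that share their scaling and RNA quality, so they are given as a description. ACSL1 was most like ATP5A1, the alpha subunit of the mitochondrial ATP synthase (r = 0.98), then COL15A1 (0.96) and CNIH1 (0.96). FABP3 was most like MPC1, a subunit of the mitochondrial pyruvate carrier (0.97). FABP4 was most like the ribosomal protein genes MRPS24 (0.95), RPL27 (0.94) and RPS13 (0.94). DBI was most like CDC34, a ubiquitin-conjugating enzyme (0.98), and FABP5 was most like the kinase NEK9 (0.93). SLC27A6 was most like DBT, a subunit of the branched-chain keto acid dehydrogenase (0.96), ACSL4 most like RNF2 (0.96) and ACSL3 most like RRP36 (0.95). For SLC27A1, near background on most arrays, the nearest was S100A12 (0.93).

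Other genes of the same families and of related steps were taken from a list of 42, of which 20 had a probe set and 15 were tested. Those tested include GOT2, CAV1, SCP2, ACOT7, ACOT8, ACOT9 and ACOT13, which lie outside these families. Of the 15, 8 had a higher and 7 a lower mean in KNP, with a median log2 difference of 0.09. In limma 0 passed an adjusted p of 0.05 and 0 had an unadjusted p under 0.05. The smallest p belonged to ACSS3, a mitochondrial short-chain acyl-CoA synthetase, at 10.93 ± 0.39 for KNP against 11.40 ± 0.39 for YS (SD, n = 4). Next was the acyl-CoA binding protein ACBD6, at 11.03 ± 0.19 and 10.72 ± 0.27 (adjusted p = 0.9998 in limma for both). The binding proteins of liver, intestine, ileum and brain (FABP1, FABP2, FABP6 and FABP7) and the synthetase ACSL6 did not pass the filter on low mean signal. They were not tested, and were above the no-target level on 1 to 4 of 8 arrays. ACSL5, a synthetase known from intestine and liver, was measured on all 8 arrays, at 9.41 ± 0.19 for KNP against 9.20 ± 0.15 for YS.

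Genes of fatty acid release and of lipoprotein handling were split 7 higher and 2 lower in KNP among 9 tested of a list of 11, with 0 past the threshold in limma, 0 with an unadjusted p under 0.05 and a median of 0.07. The 9 include GPIHBP1, APOE, VLDLR and ANGPTL4, which do not release fatty acids themselves. The members with the smallest p were lipoprotein lipase (LPL), with a log2 difference of -0.50 ± 0.25 (SE), and monoacylglycerol lipase (MGLL), with 0.45 ± 0.32 (SE). With quantile normalization this split was 5 to 4. LPL was the 1 gene of the 9 in which the breeds did not overlap, which was seen for 1.96% of all probe sets tested. Genes of acyl-CoA use were split 5 higher and 8 lower among 13 tested of a list of 15, with a median of -0.05. Again 0 passed the threshold in limma and 0 had an unadjusted p under 0.05. The 13 include the carrier SLC25A20, which is not an enzyme and is among the 5. ACADL, which oxidises long-chain acyl-CoA, differed by -0.50 ± 0.36 (SE) and GPAM, which starts glycerolipid synthesis, by -0.63 ± 0.62 (SE). GPAM was dim, above the no-target level on 5 of 8 arrays.

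Transcription factors known to drive these genes had a higher mean in KNP for 9 of 10 tested, from a list of 12, with a median of 0.26, where 49.9% of all probe sets tested had a higher mean in KNP. The count of 9 was the same with quantile normalization and with median centring. None of the 10 passed in limma and 0 had an unadjusted p under 0.05. The exception was PPARG, the nuclear receptor that induces FABP4 and other genes of fat cells, with means of 11.51 ± 0.65 for KNP against 11.78 ± 0.33 for YS (SD, n = 4), a difference of -0.27 ± 0.36 (SE). SREBF1 and NR1H3, which drive lipid synthesis, differed by 0.39 ± 0.37 and 0.23 ± 0.28 (SE), and SREBF1 was above the no-target level on 6 of 8 arrays.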

How the data were processed

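For 24123 probe sets the deposited table gives a linear intensity on each array. The authors' scaling was read from the values: with 2% of probe sets trimmed from either end, all arrays had a mean of 500.1. Per the labels, RNA was labelled with biotin; how probes were summarised is not given in the sources used, and no detection or saturation calls were used. After 124 control probe sets were left out, the 25% of the other 23999 with the lowest mean log2(signal + 16) were left out of the test. Breeds were compared over the remaining 17999 with limma 3.58.1 in R 4.3.3 (statmod 1.5.0; lmFit, eBayes, breed as the only term). The test was two-sided, and p-values were adjusted by Benjamini-Hochberg over all of these with a threshold of 0.05. Gene symbols came from the platform annotation, and all 9 measured symbols matched RefSeq by Entrez identifier. No 2 arrays were duplicates. The test was checked on simulated data.

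All member probe sets are named; from other lists the 2 genes with the smallest p are named, PPARG, ACSL5 and the genes too dim to test being added after their values were seen. The members and lists were chosen with earlier results of these data known. Alternatives were other filters, normalizations, pseudocounts (1 and 64), variance models, array weights, a replicate block, a 3'/5' covariate, omitted arrays, an adjusted p of 0.10 and averaging the probe sets of a gene. Replicate numbers come only from the sample titles and were not treated as pairs. Balances between genes were added after the data were seen; that of SLC27A1 against SLC27A6 was computed and is not reported, SLC27A1 being near background.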

Additional observations from a re-analysis of the deposited data

Results flagged for a closer look

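In the 24 sets of 4 arrays (12 probe sets in each breed), 3 had 1 array far from the other 3 by Dixon's ratio, where chance gives about 1 in 20. The leading SLC27A6 probe set was lowest on YS replicate 1, at 8.38 in log2 against 8.67 for the next array, within an otherwise narrow range. A further SLC27A6 probe set, the second by mean signal, was lowest on KNP replicate 1, at 5.48 against 7.22 for the next, and lay under the no-target level there. ACSL3 was lowest on YS replicate 3, at 7.40 against 8.20 for the next.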

How the results depend on the processing

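The count of 0 member probe sets past the threshold was 0 in each of 20 alternative settings, including the replicate block, and the smallest adjusted p of any member over them was 0.483, for ACSL1 once KNP replicates 1 and 2 and YS replicate 4, which had the largest 3'/5' differences, were left out together. Members with an unadjusted p under 0.05 in limma numbered 0 to 2. The 2, ACSL1 and FABP3, came without those 3 arrays, where 1492 of all 17999 probe sets tested were under 0.05. With 1 member, the counts over all 17999 were 877 (3'/5' covariate) and 777 (without KNP replicate 1). In the fit of all arrays the count was 511. Same-numbered KNP and YS arrays correlated at -0.17, 0.02, 0.13 and -0.19 in their deviations from breed means. So few correlations cannot exclude pairing. The numbers were not treated as pairs in the main fit, and the replicate block changed no call. FABP4, FABP5, ACSL1 and ACSL3 kept their direction in 20 settings each, and the leading SLC27A6 probe set in 19; the mean over the SLC27A6 probe sets was -0.0080. DBI, 0.14 in the fit of all arrays, became -0.035 under quantile normalization, -0.0020 when arrays were weighted, -0.060 when the 3'/5' difference was a covariate and -0.23 when those 3 arrays were left out. ACSL4, 0.029, became -0.014 under quantile normalization. SLC27A1, -0.54, became 0.35 when those 3 arrays were left out. Leaving out 1 array at a time gave -0.33 to 0.34 for FABP3 (-0.036 with all), -0.17 to 0.30 for ACSL4 and -0.073 to 0.33 for DBI. It gave -1.06 to -0.058 for ACSL1, 0.11 to 0.46 for ACSL3, 0.097 to 0.32 for FABP4, 0.15 to 0.35 for FABP5, -1.06 to -0.093 for SLC27A1 and -0.63 to -0.14 for SLC27A6. SLC27A1 had no value in 4 settings, where it fell below the filter. The cause of these moves was not tested.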
